A study of Mus musculus with 34 samples.

Results

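The nuclear genes for mitochondrial ribosomal proteins were followed across ribosome footprints (RPF, the mRNA fragments covered by ribosomes) and RNA of mouse hippocampus, cultured hippocampal cells and embryonic stem cells. They were taken by symbol, as all genes whose name starts with Mrpl or Mrps and a number. Of the 11531 genes listed for tissue, 74 matched, 46 with a large-subunit name (Mrpl) and 28 with a small-subunit name (Mrps). The tables of the cultured and stem cells list 73 of them, all but Mrpl48.

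Tissue was hippocampus of C57BL/6N mice, kept singly and handled for 3 min a day on 4 days. Control mice received no stimulus. The other mice explored a chamber for 148 s, received a foot shock of 2 s, went back to their home cage 30 s later and were sampled 5, 10 or 30 min or 4 h after this contextual fear conditioning. Each of these 5 groups had 3 RPF and 3 RNA libraries. The primary culture came from hippocampi of the same strain, and the stem cells (ESC) were the single line A3-1, grown with LIF and treated for 48 h with a siRNA against luciferase, a gene that mouse cells do not carry. Culture and ESC had 1 RPF and 1 RNA library each, so their values have no replicates and no test. In all groups lysates contained cycloheximide, which stalls ribosomes on mRNA, and ribosomes were collected on gel filtration columns. The labels do not say that replicates come from separate mice. The p-values below therefore measure the spread between these libraries, which may be technical.

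Mitochondrial ribosomes make the few proteins encoded by mitochondrial DNA, all of them subunits of the respiratory chain and ATP synthase. Their RNA comes from the mitochondrial genome, but all of their proteins are encoded in the nucleus, made by cytosolic ribosomes and imported. Footprints on Mrp mRNAs therefore report synthesis by cytosolic ribosomes, and the hippocampus is a tissue whose neurons rely on respiration. Gene names do not always give the place of the protein: the products of Mrps18a and Mrps30 sit in the large subunit, and the product of Mrps36 is now assigned to the oxoglutarate dehydrogenase complex.

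Promoter sequences are shown for the Mrps18 paralogues, 3 genes of 1 origin that stood at different places in the comparison of ESC with tissue below. The stretches hold the 250 bases before the annotated start, 5′ to 3′ on the gene's strand, from RefSeq on GRCm38.p6, which is not the mm9 build of the reads. Capitals mark CCGGAAG or its reverse complement, the core that ETS factors such as GABPA bind. Mrps18a lies on chr17:46110754-46111003 (+), with the capitals 26 to 20 bases before the start, Mrps18b on chr17:35916441-35916690 (-) and Mrps18c on chr5:100798509-100798758 (+), with the capitals 156 to 150 bases before it.
Mrps18a: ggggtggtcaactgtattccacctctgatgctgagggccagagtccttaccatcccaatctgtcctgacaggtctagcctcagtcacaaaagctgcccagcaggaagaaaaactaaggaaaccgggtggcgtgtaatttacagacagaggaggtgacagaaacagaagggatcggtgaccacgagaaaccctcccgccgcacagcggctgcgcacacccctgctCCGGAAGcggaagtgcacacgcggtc
Mrps18b: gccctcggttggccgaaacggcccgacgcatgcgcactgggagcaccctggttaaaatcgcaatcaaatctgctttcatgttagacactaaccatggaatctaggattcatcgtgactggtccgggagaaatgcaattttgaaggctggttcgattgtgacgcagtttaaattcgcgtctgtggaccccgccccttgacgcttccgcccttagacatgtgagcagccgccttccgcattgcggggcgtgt
Mrps18c: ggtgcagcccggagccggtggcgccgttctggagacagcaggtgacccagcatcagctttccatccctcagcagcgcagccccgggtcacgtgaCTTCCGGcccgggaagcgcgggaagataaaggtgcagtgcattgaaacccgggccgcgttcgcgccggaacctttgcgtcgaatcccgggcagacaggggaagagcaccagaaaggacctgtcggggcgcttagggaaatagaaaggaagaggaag
Mrps18b holds no such letters in this stretch but 1 match within the 50 bases after its start. Promoters of 65 of the 74 members were found in the RefSeq table, which gives 300 bases a start, 250 before and 50 after it. On either strand, 23 of them (35.4%) held CCGGAAG, against 9.93% of 27025 genes. The YY1 motif was in 5 (7.69%, against 0.755%), Mrps18a among them, and the NRF1 motif in 3 (4.62%, against 1.07%). The ETS core ends in the letters AAG that open the YY1 motif, so their matches can overlap. In all, 29 members (44.6%, against 11.3%) held at least 1. Mrpl46 and Mrps11 share a promoter region, since their windows run on opposite strands and overlap by 141 bases on chr7. Their RNA ratios of ESC to tissue were 1.77 and 0.71 on the log2 scale. A match describes the letters only.

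Reads on the listed genes ranged from 14240563 to 30480009 a library in tissue footprints and from 16814796 to 25515210 in tissue RNA. They were 18771379 and 7282564 in the culture and 65147288 and 16686790 in ESC (RPF and RNA). The 5 neuronal markers (Snap25, Syt1, Rbfox3, Tubb3 and Slc17a7) were all listed in tissue and culture, and the 5 stem cell markers (Pou5f1, Nanog, Zfp42, Sox2 and Dppa5a) in ESC, where Snap25, Syt1 and Rbfox3 were not listed. For the culture all 5 astrocyte markers and 2 of the 5 oligodendrocyte markers were also listed. Of the 5 microglial markers 1 was listed for it, and of the 5 endothelial markers none. Members carried 42080 to 78711 footprint reads and 36290 to 51257 RNA reads a tissue library. The deposited signal, defined in the processing notes, is a read number divided by 1 number per library. It is compared between libraries for 1 gene and not between genes, since gene length may enter it. Its mean over the tissue footprint libraries ran from 0.321 for Mrpl48 to 10.6 for Mrps21.

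Members took 0.252 to 0.339% of the footprints in tissue and 0.181 to 0.225% of the RNA reads. The culture was at 0.278% of footprints, inside the tissue range, and at 0.289% of RNA, above it. ESC were at 0.655% of footprints and 0.648% of RNA, above all tissue libraries. The gene Gm20594 alone took 12.04 to 15.53% of the RNA reads in tissue, 4.79% in culture and 1.83% in ESC. Its reads are part of the total, so they lower the RNA share of members more in tissue than in the cells. The totals also cover unlike lists, of 11531 genes in tissue, 10379 in culture and 11029 in ESC. Shares without this gene are not given. Among tissue libraries the share did not separate the times. It separated replicate number 1 of the titles from the others: in footprints number 1 lay between 0.252 and 0.259%, number 2 between 0.295 and 0.323% and number 3 between 0.313 and 0.339%. In RNA the ranges were 0.181 to 0.197%, 0.203 to 0.225% and 0.214 to 0.224%, with numbers 2 and 3 overlapping in both kinds.

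**Figure D1:**
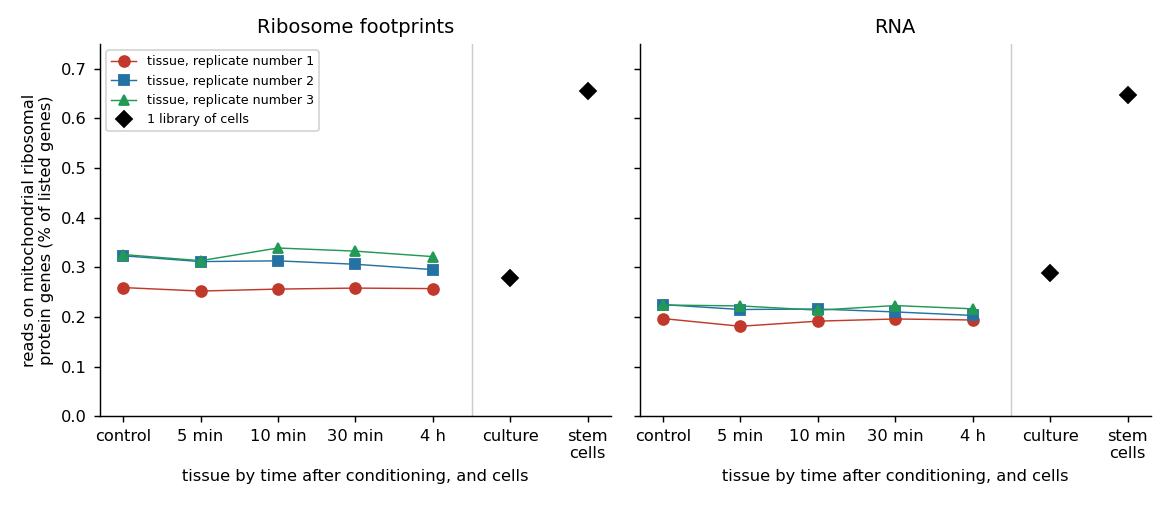
Share of the reads on listed genes that fell on mitochondrial ribosomal protein genes, in percent, for footprints (left) and RNA (right). Each point is 1 library, coloured lines join tissue libraries of 1 replicate number across the times, and diamonds are the single libraries of culture and stem cells. Replicate number 1 lies below numbers 2 and 3 at each time, and the stem cells lie above all tissue libraries at 0.655 and 0.648%.

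The time course asks whether synthesis of the mitochondrial translation machinery changes in the hours after a learning event. No member passed the test at any time, in footprints, in RNA or in footprints relative to RNA. The test was limma on log2(signal + 1), with p-values adjusted by Benjamini-Hochberg across every gene tested and called under 0.05. It covered 71 members in footprints and 59 in RNA and in the ratio, those with a mean signal of at least 1. The share of all genes called was 0% in each of the 12 comparisons and of the 3 F tests over all times. At an unadjusted p under 0.05 this test, which has no block for replicate number, had no member in footprints. Genes under it there were 51, 26, 20 and 42 at 5, 10 and 30 min and 4 h, or 0.253 to 0.646% of those tested. In RNA there were 84, 150, 118 and 209 genes with 1 member, Mrps31 at 10 min. In the ratio there were 50, 58, 16 and 44 genes and no member. limma-voom on the reads recovered from the signal likewise called 0 members and 0 genes in each comparison. With the replicate number as a block 0 members passed, and 4 genes passed in footprints at 30 min and 1 to 3 genes in RNA at each time. The F tests over all times then called 6 genes in footprints and 5 in RNA, and the ratio 1 gene at 5 min. With this block 8, 3, 1 and 4 of 71 members had an unadjusted limma p under 0.05 in footprints at the 4 times. Of all genes 6.89, 3.28, 2.76 and 6.04% did. In the ratio 1, 2, 2 and 7 of 59 members did, and 5.59, 5.70, 2.42 and 6.35% of genes. In RNA 3, 4, 1 and 1 of 59 members did, and 6.60 to 16.3% of genes.

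The estimates were small. In footprints the member changes ran from -0.14 to 0.11 on the log2 scale over the 4 times, with a median standard error (SE) of 0.09. This SE also holds the differences between replicate numbers, and with the replicate block the median was 0.04. The medians at 5, 10 and 30 min and 4 h were -0.02, 0.01, -0.00 and -0.02, and over all genes they were -0.00, 0.00, 0.01 and 0.00. The counts of members above control were 18, 37, 35 and 21 of 71, where 47.3, 50.3, 60.8 and 51.2% of all genes were above it. Since libraries of 1 replicate number varied together, direction was also counted within numbers. At 5 min 26 of the 71 members were lower in 3 of 3 numbers, where 22.9% of all genes were, and 7 were higher in 3 of 3, where 20.7% of genes were. At 4 h 18 were lower in 3 of 3 (10% of genes) and 3 were higher (13.7% of genes). At 10 and 30 min the counts lower were 6 (12% of genes) and 7 (6.43%), and the counts higher were 15 (12.6%) and 8 (8.26%). In RNA, 3, 12, 10 and 8 of 59 members were higher in 3 of 3 numbers at 5, 10 and 30 min and 4 h, where 19.7, 31.9, 23.6 and 27.5% of genes were. The members lower in 3 of 3 were 8, 5, 6 and 4, where 9.39, 6.22, 4.94 and 7.82% of genes were.

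**Figure D2:**
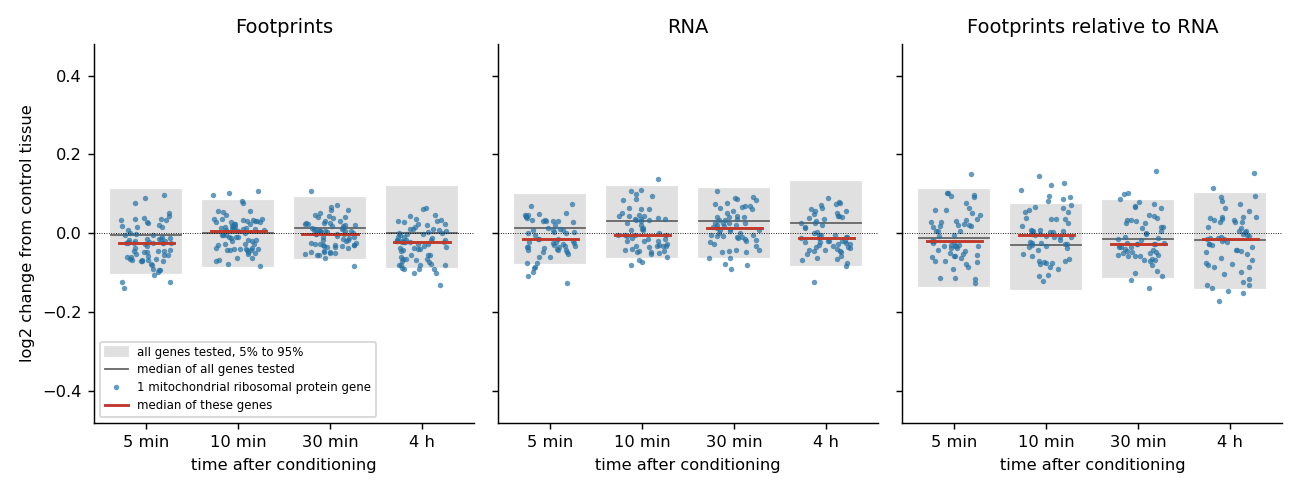
Log2 change from control of each tested mitochondrial ribosomal protein gene (blue points) at 4 times after conditioning, in footprints, RNA and footprints relative to RNA. Red bars are their medians, grey boxes span the 5% to 95% range of all genes tested, and grey lines are the medians of all genes. The points lie around 0, and none passed the test.

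In footprints the smallest p of a member at 5 min belonged to Mrpl37, a mitochondria-specific large-subunit protein. Its footprint signal was 1.55, 1.63 and 1.55 in control (replicate numbers 1 to 3) and 1.39, 1.53 and 1.30 at 5 min, so the groups did not overlap. Its log2 change in footprints was -0.10, with an SE of 0.05 and a limma adjusted p of 1.00. At 4 h Mrpl37 was at 1.51, 1.41 and 1.40, again below all control values, where it differed by -0.08 (SE 0.05) and again did not pass. Footprint groups did not overlap in 6 of 71 members at 5 min (4.84% of genes) and in 2 at 4 h (2.81% of genes). Mrpl51, another subunit without a bacterial relative, stood at 3.29, 3.56 and 3.71 in control and 2.82, 3.25 and 3.25 at 5 min in footprints. Its RNA stood at 3.71, 3.71 and 3.96 in control and 3.21, 3.62 and 3.52 at 5 min, so neither kind overlapped at this time. RNA groups did not overlap in 3 of 59 members at 5 min (4.78% of genes). Mrpl47, a relative of bacterial L29 at the exit of the protein tunnel, was at 1.05, 1.19 and 1.25 in control and 0.87, 0.94 and 1.15 at 5 min, with overlap. With the replicate block Mrpl37, Mrpl47 and Mrpl51 had unadjusted p of 0.028, 0.0070 and 0.0075 at 5 min, and limma adjusted p of 0.67 each.

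Mrpl10, the base of the stalk that binds elongation factors, was on the other side. Its footprint signal was 1.67, 2.28 and 1.93 in control, 1.93, 2.30 and 2.33 at 10 min and 1.97, 2.50 and 2.09 at 30 min, higher in 3 of 3 numbers at both times with overlapping groups (log2 change 0.11, SE 0.10, limma adjusted p = 1.00 at each). Mrpl15, a large-subunit protein with a bacterial relative, was higher in 3 of 3 numbers at 30 min and 4 h. It stood at 1.59, 1.52 and 1.76 in control and 1.72, 1.58 and 1.94 at 4 h, and its 30 min difference of 0.06 was -0.01 without replicate 3 of that time. Mrpl34 and Mrpl54 of the large subunit and Mrps26 of the small subunit were the 3 with the smallest p on the higher side at 5 min, with log2 changes of 0.09, 0.10 and 0.08 (limma adjusted p = 1.00 for each).

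In RNA, Mrps31, a mitochondria-specific small-subunit protein, had the smallest p. It stood at 1.34, 1.09 and 1.29 in control and 1.45, 1.49 and 1.45 at 10 min, without overlap (log2 change 0.14, SE 0.05, unadjusted p = 0.011, limma adjusted p = 1.00, and adjusted p = 0.33 with the replicate block). Mrps15, a relative of bacterial S15, and Mrpl18, a large-subunit relative of bacterial L18, were also above all control values at 10 min, with log2 changes of 0.11 and 0.11. RNA of Mrps33 at 4 h was 4.38, 4.37 and 4.46, above control values of 4.07, 4.15 and 4.00, and also did not pass (limma adjusted p = 1.00). RNA groups did not overlap in 3 of 59 members at 10 min (7.07% of genes) and in 3 at 4 h (6.9% of genes). Mrpl12, which forms the ribosomal stalk and also binds the mitochondrial RNA polymerase, had RNA values of 1.72, 1.77 and 1.603 in control and 1.64, 1.33 and 1.47 at 4 h. That difference, -0.12 (SE 0.06), had the lowest adjusted p of any member under any alternative, 0.22 with the replicate block.

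Relative to RNA, footprint changes of members ran from -0.17 to 0.16 with a median SE of 0.12 (0.06 with the replicate block). The largest estimates were Mrpl1 at 4 h (-0.17, SE 0.09), Mrpl46 at 4 h (-0.15, SE 0.08), Mrpl34 at 30 min (0.16, SE 0.14) and Mrpl12 at 4 h (0.15, SE 0.17), each with a limma adjusted p of 1.00. All of these are large-subunit proteins.

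Libraries also differed by replicate number. In a limma model with group and number, 59 of 71 members passed the F test over numbers in footprints, where 73.1% of all genes did, and 26 of 59 passed in RNA, where 65.5% did. The members leaned to 1 side in footprints: 32 of 71 (45.1%) were lower in every library of number 1 than in every library of numbers 2 and 3, against 12.7% of genes. None was above them throughout, against 19.9% of genes. Their median log2 ratio of numbers 2 and 3 to number 1 was 0.22, against -0.03 over all genes. Cytosolic ribosomal proteins had 0.26 and nuclear oxidative phosphorylation genes 0.24 by the same measure. In RNA the member median was 0.04 against -0.07 over all genes, and 2 of 59 members were lowest in number 1 throughout (4.18% of genes).

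Mrpl43, a large-subunit protein without a bacterial relative, had footprint signals of 2.17 to 2.29 in number 1, 3.07 to 3.25 in number 2 and 2.87 to 3.12 in number 3, with the time groups inside each range (log2 ratio 0.46, limma adjusted p = 3.3e-08). Mrpl33, a small relative of bacterial L33, ran from 2.22 to 2.61, 3.06 to 3.55 and 3.74 to 4.19 (log2 ratio 0.56, adjusted p = 4.7e-08 by limma). Mrpl52 and Mrpl12 were likewise lower in each library of number 1, with log2 ratios of 0.45 and 0.44. Mrps12, which forms part of the decoding centre, was at 1.26 to 1.42 in number 1, 1.90 to 2.17 in number 2 and 1.42 to 1.67 in number 3. On the other side lay Mrps5, Mrps9 and Mrps22 of the small subunit, at -0.18, -0.16 and -0.10. In RNA, Mrpl30 had the smallest p, at 3.03 to 3.14 in number 1, 3.20 to 3.59 in number 2 and 3.63 to 3.92 in number 3 (log2 ratio 0.21, limma adjusted p = 1.5e-05).

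Several lists of cell type markers, 5 a list and all listed, also went with replicate number in footprints. Those of the choroid plexus, a secretory tissue beside the hippocampus (Ttr, Enpp2, Kl, Folr1 and Clic6), summed to 19614 to 31300 footprint RPM (reads per 1000000) in number 1, 14559 to 31112 in number 2 and 1070 to 7651 in number 3. Astrocyte markers summed to 3047 to 3141, 2502 to 2822 and 2884 to 3024, and microglial markers to 617 to 670, 467 to 571 and 565 to 599. Neuronal markers summed to 6598 to 6716, 6851 to 7362 and 6988 to 7295. Number 1 lay above both other numbers in astrocyte and microglial markers. In neuronal markers, and in member share, it lay below them. Oligodendrocyte markers (4436 to 5080, 4029 to 5059 and 4913 to 5492) overlapped between all numbers, and endothelial markers (84.9 to 101, 70.0 to 92.8 and 67.6 to 77.2) between number 2 and each of the others. In RNA, neuronal markers summed to 3710 to 3869, 3700 to 3870 and 3985 to 4140 RPM, so numbers 1 and 2 overlapped. Astrocyte markers in RNA (1954 to 2045, 1735 to 1842 and 1904 to 2028) overlapped between numbers 1 and 3. Microglial markers in RNA (300 to 316, 237 to 253 and 271 to 275) kept number 1 above both others. Member share in RNA stayed lowest in number 1. The part of these cells in the member difference was not tested. In bulk samples fewer cells of a type and less RNA per cell cannot be told apart.

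**Figure D3:**
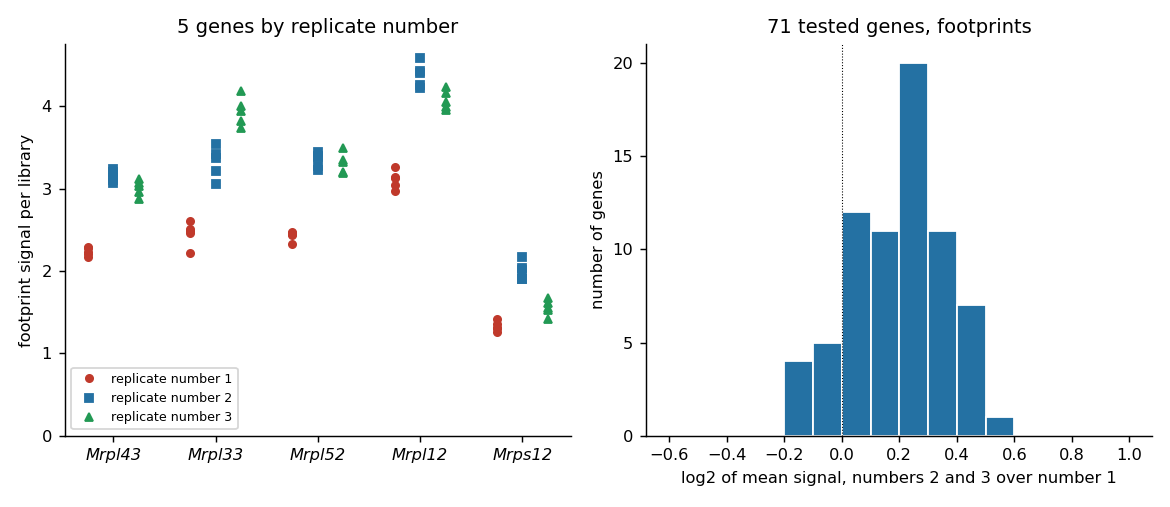
Left: deposited footprint signal of 5 genes in each tissue library, by replicate number, with the 5 time groups as separate points. Right: number of the 71 tested mitochondrial ribosomal protein genes by log2 of the mean signal of numbers 2 and 3 over number 1; most genes lie above 0, with a median of 0.22.

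Footprints were then set against RNA in control tissue, which asks how densely ribosomes cover these mRNAs. The ratio is given relative to the median gene, so 0 means the ratio of that gene. Of the 59 tested members 32 were above it by the limma test, where 37.3% of all genes were, and 6 were below it, where 37.9% were. The member median was 0.21 on the log2 scale. Above the median gene were 22 of 39 large-subunit and 10 of 20 small-subunit genes, shares of 56.4 and 50% of each, and 2 and 4 were below. With the replicate block 39 were above and 9 below (43.3 and 43.3% of genes). With no filter on low values 49 of 74 were above and 6 below (36.8 and 37.6% of genes). Of the 15 members left out of the main test, 12 missed it through RNA alone.

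Mrps21, a small basic protein of the small subunit, had the highest ratio of the tested members on the log2(signal + 1) scale. Its control signals were 9.76, 10.3 and 10.9 in footprints and 4.20, 4.26 and 4.53 in RNA. The ratio was 1.05 (SE 0.10) above the median gene, or 2.07-fold in signal + 1 (limma adjusted p = 4.3e-10). Mrpl27, which reaches to the tRNA at the peptidyl transferase centre, followed at 0.95 (SE 0.08, limma adjusted p = 7.1e-11), from 4.13, 4.62 and 4.44 in footprints and 1.603, 1.66 and 1.91 in RNA. Mrpl41, Mrps34 and Mrpl12 were at 0.92, 0.84 and 0.77. Mrpl41 and Mrps34 belong to the subunits that bacteria lack. All 3 replicate pairs of these 5 genes lay above 0, the lowest at 0.56 for Mrpl12 in number 1. The 5 genes were chosen as the highest estimates from the same control libraries, so the pairs are no separate support.

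At the other end Mrpl18 was at -0.43 (SE 0.06, limma adjusted p = 2.1e-06), from 2.16, 2.42 and 2.41 in footprints and 3.48, 3.35 and 3.25 in RNA. Mrps26 and Mrps7, a mitochondria-specific subunit and a relative of bacterial S7, were at -0.39 and -0.30. Mrpl49 and Mrps31 were at -0.23 and -0.19, and Mrpl49 did not pass without control replicate 1 (-0.21, limma adjusted p = 0.061). The replicate pairs of these 5 genes all lay below 0, and they too come from the control libraries by which the genes were chosen. Footprints and RNA of 1 gene share its length. The 1 added to each signal shrinks the log2 ratio more in genes of low signal, so the order of genes depends on it. By the plain control means of footprints and RNA, Mrpl27 (4.40 and 1.72) stood above Mrps21 (10.3 and 4.33). Mrps36 (2.03 and 0.54), Mrpl14 (2.21 and 0.66) and Mrpl16 (2.27 and 0.82), left out of the test for low RNA, stood above both. Mrps12 differed from the median gene by -0.02 (SE 0.12) and did not pass.

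**Figure D4:**
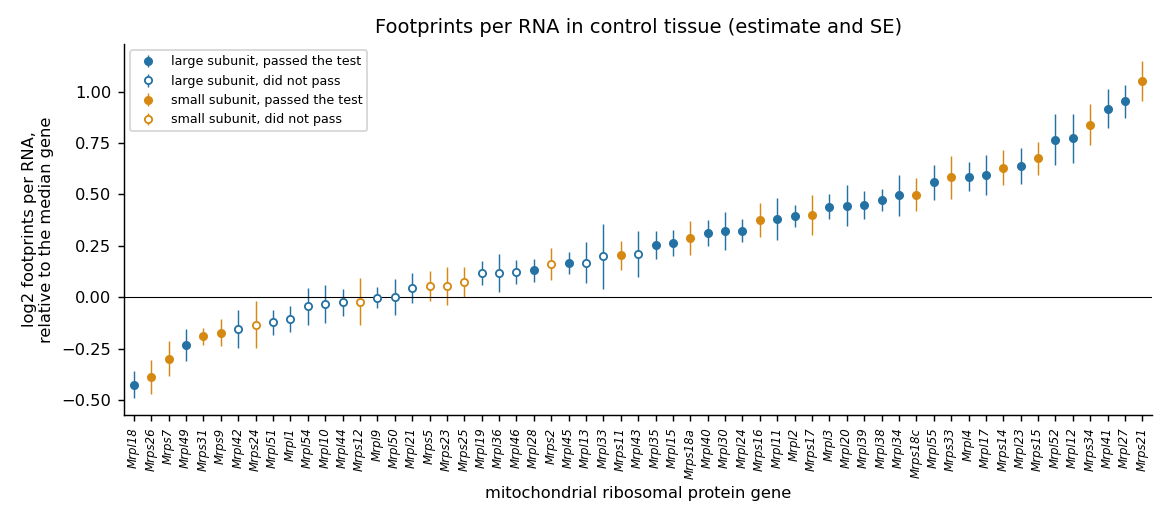
Log2 footprints per RNA in control tissue, relative to the median gene, for the 59 tested mitochondrial ribosomal protein genes in order of the estimate, with SE bars. The estimates are on log2(signal + 1). Filled points passed the limma test against the median gene; 32 lie above 0 and 6 below, from -0.43 for Mrpl18 to 1.05 for Mrps21.

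The same ratio in gene families that work with the members is given beside it. Of 67 cytosolic ribosomal proteins tested, 4 were above the median gene and 54 below, with a median of -0.92. Of 74 nuclear oxidative phosphorylation genes 59 were above and 5 below, with a median of 0.76. Mitochondrial ribosomal proteins lay between these medians. These differences between lists were not tested. Of the 7 other mitochondrial ribosome subunits, such as Dap3 and Ptcd3, 5 were above and 1 below. Of 15 mitochondrial translation factors, such as Tufm and Gfm1, 7 were tested, 4 of them above and 1 below. Of 4 mitochondrial aminoacyl-tRNA synthetases tested 2 were above and 0 below. Other lists lay lower. Of 3 assembly and ribosomal RNA modification factors tested 0 were above and 2 below (median -0.45). Of 3 mitochondrial transcription and replication genes tested 0 were above and 2 below (median -0.39). Over all genes 37.3% were above and 37.9% below.

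ESC against tissue shows how the set differs between a dividing pluripotent line and brain. Levels are RPM, reads per 1000000 reads on the 8760 genes listed in all tables. In ESC 42 of 73 members were over 2-fold higher in RNA than the mean of the control libraries, where 28% of all genes were, and 2 were over 2-fold lower, where 36% were. In footprints 30 were over 2-fold higher (25.7% of genes) and 3 lower (38.7% of genes). The median ratio of members was 2.18-fold in RNA and 1.65-fold in footprints. Of the 73 members 29 were over 2-fold higher in both kinds, where 21.6% of genes were, and 2 were lower in both, where 31.0% were. These counts depend on the scaling, and the median log2 ratio of all genes was itself at -0.17 in RNA and -0.36 in footprints. With median-of-ratios scaling 40 members were higher and 2 lower in footprints (31.8 and 33.2% of genes), and with the deposited signal 56 and 1 (41 and 26.2% of genes). In RNA these counts were 49 and 1 (31 and 33% of genes), and 59 and 1 (36.8 and 28.3% of genes). Relative to the median gene the member median was 1.08 in footprints and 1.30 in RNA under RPM, and 67 and 69 of the 73 members lay above that gene under each scaling.

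Mrpl15, the large-subunit relative of bacterial L15, had the highest ratio of any member in both kinds. Its footprints were at 31.5, 32.5 and 35.4 RPM in control tissue and 396 in ESC (exact Poisson 95% interval 391 to 401, counting error only), a log2 ratio of 3.58. Its RNA was at 22.3, 23.2 and 20.6 in tissue and 415 in ESC (405 to 425), 18.8-fold higher (log2 4.23). Mrps27, an RNA-binding pentatricopeptide repeat protein of the small subunit, was at 7.96, 8.47 and 7.32 in tissue RNA and 73.2 in ESC RNA, 9.24-fold. Its footprints were at 18.0, 18.5 and 18.1 in tissue and 83.5 in ESC, 4.59-fold. Mrpl45, which anchors the ribosome to the inner membrane, was 6.01-fold higher in footprints and 5.83-fold in RNA. Mrps9 and Mrps5, relatives of bacterial S9 and S5, were 5.81- and 5.77-fold higher in footprints and 5.75- and 8.20-fold in RNA. Mrpl22, which lines the exit tunnel, was 7.33-fold higher in RNA and 4.53-fold in footprints.

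A few members went against the rest. Mrpl41 was at 45.8, 58.6 and 55.1 RPM in tissue RNA and at 3.29 in ESC RNA (51 reads, interval 2.45 to 4.32), a log2 ratio of -4.02. Its footprints were at 108, 143 and 131 in tissue and 44.7 in ESC, a log2 ratio of -1.51. Mrps33 was at 119, 140 and 158 in tissue footprints and 25.6 in ESC (log2 ratio -2.44), and at -1.11 in RNA. Mrps21 was lower in footprints (193, 220 and 218 in tissue, 88.6 in ESC, log2 ratio -1.25), with its RNA at -0.08. Under each of the 3 scalings Mrpl41 and Mrps33 were lower in both kinds and Mrps21 in footprints, while Mrps21 RNA was higher with median-of-ratios scaling (0.10) and with the deposited signal (0.41). These 3 members all had more footprints per RNA than the median gene in control tissue, at 1.05 for Mrps21, 0.58 for Mrps33 and 0.92 for Mrpl41. The same held for 44 of the 59 tested members, these 3 included, so lying above that gene does not set them apart. A link between this ratio and the lower values in ESC was not tested. Mrpl27, Mrps26 and Mrpl36 were within 2-fold in both kinds, at -0.89, -0.61 and 0.54 in footprints and 0.27, -0.11 and -0.38 in RNA. Of these, the deposited signal put Mrpl27 at 0.00 in footprints, Mrps26 at 0.28 in footprints and 0.39 in RNA and Mrpl36 at 0.11 in RNA, so the direction of all 3 in those kinds depends on the scaling.

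The Mrps18 paralogues, whose promoters are shown above, separated here. Mrps18b was at 14.7, 19.3 and 20.2 RPM in tissue RNA and 153 in ESC, 8.47-fold higher. Mrps18c was at 30.5, 36.1 and 31.0 in tissue and 68.6 in ESC, 2.11-fold higher. Mrps18a was at 38.4, 48.8 and 52.4 in tissue and 36.7 in ESC, below all control libraries with a ratio of 0.79 (log2 -0.34). The sign for Mrps18a depends on the scaling, since the deposited signal put it at 0.15 in RNA and 0.37 in footprints, and relative to the median gene it was at -0.17 and -0.16. Footprints kept the order, at 4.95-, 1.76- and 0.70-fold. The proteins of Mrps18b and Mrps18c are in the small subunit and that of Mrps18a in the large subunit. All 3 promoter windows hold the ETS core, and members with and without it had median log2 RNA ratios of 0.99 and 1.31 in ESC. The treatment of reads matching more than 1 gene, and of strand, is not stated in the labels, so genes with close copies or overlapping neighbours are uncertain.

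**Figure D5:**
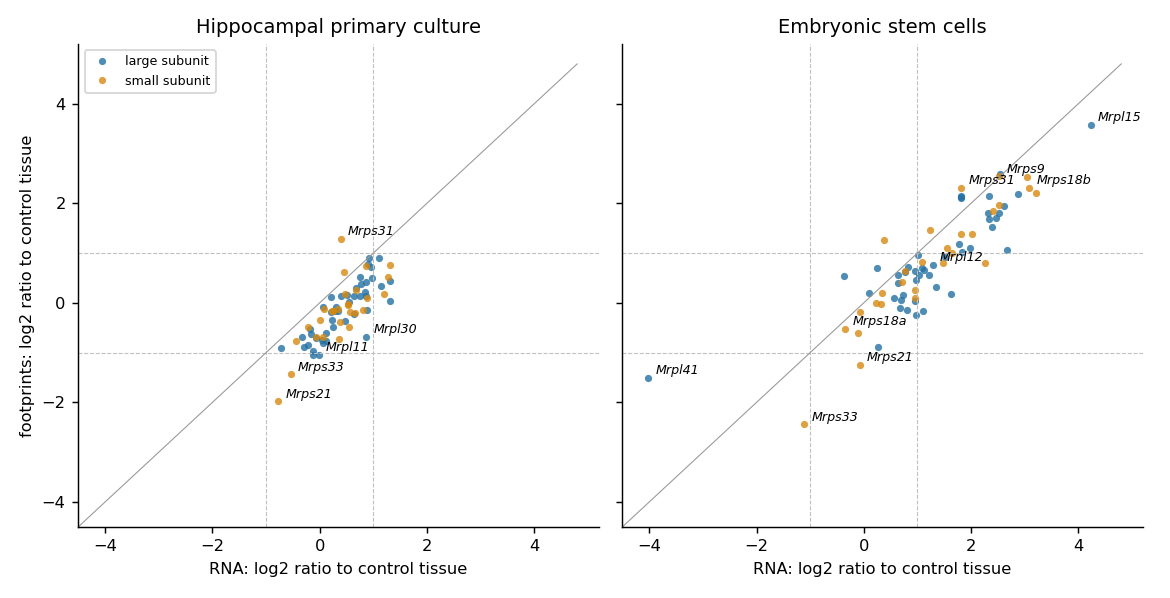
Log2 ratio to the mean of the control tissue libraries in RNA (x axis) and footprints (y axis) for 73 mitochondrial ribosomal protein genes, in hippocampal culture (left) and embryonic stem cells (right), each from 1 library a kind. Dashed lines mark 2-fold and the solid line equal ratios; in stem cells 29 genes lie over 2-fold higher on both axes, and Mrpl41 and Mrps33 over 2-fold lower.

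Fewer members passed 2-fold in cultured hippocampal cells. On the 8760 genes listed in all tables members summed to 3265 footprint RPM, below the 3395, 4174 and 4114 of control tissue. In RNA they summed to 3310 RPM, above the 2370, 2706 and 2679 of control tissue. In footprints 1 member, Mrps31, was over 2-fold higher (10.6% of genes) and 4 were over 2-fold lower (12.4% of genes). In RNA 7 were higher (12.6% of genes) and none lower (7.64% of genes). Mrps31 was at 19.6, 21.4 and 20.8 footprint RPM in tissue and 50.1 in culture (interval 46.7 to 53.7), 2.43-fold higher. The lowest was Mrps21, at 193, 220 and 218 in tissue and 53.5 in culture (log2 ratio -1.98). Mrps33 was at 51.4 against the tissue values given above (log2 ratio -1.44). Mrpl11, of the site that binds elongation factors, and Mrpl36, a relative of bacterial L36, were at -1.05 and -1.04. Without control replicate 2 the footprint counts were 2 higher and 2 lower, and without control replicate 3 there were 2 higher. In RNA the members over 2-fold higher were Mrpl9, Mrpl32, Mrps22, Mrps18b, Mrps35, Mrpl10 and Mrpl37, from 2.16-fold for Mrpl10 to 2.49-fold for Mrpl9. The median of all genes in culture RNA was at 0.18. With median-of-ratios scaling 5 members were higher and none lower (8.31 and 10.5% of genes), and with the deposited signal 4 and none (7.95 and 10.9% of genes). Astrocyte markers in the culture summed to 1871 footprint and 1541 RNA RPM, taken as in the marker sums above. Neuronal markers summed to 3810 and 2926 there. The part of astrocytes in the differences between culture and tissue was not tested.

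Footprints per RNA, relative to the median gene of the same libraries, were compared for the cells by differences from the 3 control pairs. In culture the member median of the difference was -0.20, against 0.02 over all genes, and 53 of the 73 members were below all 3 control pairs (36.9% of genes) and 7 above them (42.1% of genes). Mrpl30 was the 1 member to pass 1 log2 unit (0.331% of genes were that far lower): its control pairs were at 0.34, 0.34 and 0.35 and the culture at -0.71. No member was that far higher (1.08% of genes), the highest being Mrps31 at 0.70. In ESC the median difference was -0.04, against 0.02. Mrps2, a relative of bacterial S2, was over 1 unit higher (7.51% of genes), with control pairs at 0.13, 0.35 and 0.08 and ESC at 1.20. Mrps24 and Mrpl2, relatives of bacterial S3 and L2, were over 1 unit lower (3.12% of genes), Mrpl2 at 0.39, 0.45 and 0.43 in control and -0.63 in ESC. Without control replicate 1 no member was that far higher in ESC, and without control replicate 2 there were 2 higher and 1 lower. Mrpl41 was at 0.88, 0.98 and 0.97 in control and 1.93 in ESC. Adding 1 to each signal shrinks these differences where a signal is low, as for Mrpl41 RNA in ESC. Which members pass 1 log2 unit therefore depends on the added number, and the counts with 0.1 are given at the end. Across members the ratio in culture and in tissue had a Spearman correlation of 0.71 and that in ESC and tissue of 0.55, beside 0.84 and 0.60 over all 8760 genes, as a description over genes that share libraries and sequence.

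The other genes of mitochondrial translation, taken as lists by name, were also counted in ESC. Beside these counts, 28% of all genes were over 2-fold higher and 36% lower in RNA. In footprints 25.7% were higher and 38.7% lower. The list counts were taken under RPM alone. Over the 3 scalings the share of all genes higher ran from 28 to 36.8% in RNA and from 25.7 to 41% in footprints. Of the 7 other ribosome subunits 6 were over 2-fold higher and none lower in RNA, and 1 was higher and 1 lower in footprints. Of 15 translation factors 7 were higher in RNA and 9 in footprints, with none lower. Of 20 assembly and ribosomal RNA modification factors 15 were higher and 1 lower in RNA, and 11 higher and none lower in footprints. Of 19 mitochondrial aminoacyl-tRNA synthetases 11 were higher and 3 lower in RNA, and 8 higher and 1 lower in footprints. Of 6 genes for mitochondrial transcription and replication the same 5 were higher in RNA and in footprints. Cytosolic ribosomal proteins were higher in 67 of 72 genes in RNA, with a median log2 ratio of 2.38, and nuclear oxidative phosphorylation genes in 24 of 75, with 5 lower and a median of 0.35. In footprints 71 of the cytosolic genes were higher and none lower, and 3 of the oxidative phosphorylation genes were higher and 17 lower. Their medians there were 2.67 and -0.36, beside 0.72 for mitochondrial ribosomal proteins. In the time course none of these lists had a gene past the test.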

How the data were processed

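Per the labels' protocols, small RNA libraries were made from footprints and RNA. The tools named are CASAVA 1.8.2 and Bowtie 1.1.1 and the build is mm9, per the submitters' processing notes. The deposited signal values per gene equal whole reads, within 0.001 reads, divided by 1 number per library, and the headers do not say what that number is. Members, lists and tests were chosen with earlier results of these data known. Tests used limma 3.58.1 in R 4.3.3 (lmFit, eBayes with trend, 2-sided) on log2(signal + 1), genes with a mean of at least 1, all 5 groups in 1 model and no block, with fold changes of low genes understated on that scale. The ratio of footprints to RNA was the interaction of library kind and time over 7103 genes, against 7898 genes in footprints and 8061 in RNA. For culture and ESC, RPM of the recovered reads were compared with 3 control libraries, past 2-fold, or past 1 log2 unit for the ratio of footprints to RNA. Intervals are exact Poisson at 95% and cover counting error only. Scripts were tested on simulated data. Alternatives were the pseudocount, the filter, the scaling, limma-voom, a replicate block and leaving out each library.

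Replicate numbers come from the titles, which do not say what they mark. Deviations from group means of libraries with the same number correlated across groups at 0.40 to 0.94 in footprints and 0.27 to 0.87 in RNA, so the numbers were taken to pair the libraries. Named genes were, by rule, the 3 members with the smallest p on each side of a time comparison, the 5 extremes of each other comparison (among members with at least 50 reads in each library for the cells), the 5 members with the smallest p by replicate number, those with the most and fewest footprints, the Mrps18 paralogues, Mrpl12 and Mrps12. Mrps5, Mrps9 and Mrps22 by replicate number, all 7 members higher in culture RNA, and Mrpl46 with Mrps11 were named after their values were seen.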

Additional observations from a re-analysis of the deposited data

How the results depend on the processing

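Over 192 alternatives to the 15 time comparisons no member passed the threshold, and the smallest adjusted p of a member was 0.22 (RNA at 4 h, replicate block). The replicate block moved the members above and below the median gene in footprints per RNA to 39 and 9 (43.3 and 43.3% of all genes, against 37.3 and 37.9%). It changed no other count of members called at an adjusted p under 0.05. With no filter on low values 49 members were above it. The planned edgeR test was not run, and limma-voom on the recovered reads was chosen in its place after seeing the data. With the deposited signal in place of RPM, 56 members were over 2-fold higher and 1 lower in ESC footprints, 4 were higher in culture RNA and 1 was lower in ESC RNA, where median-of-ratios scaling also gave 1. With a pseudocount of 0.1, 1 member was over 1 log2 unit higher in footprints per RNA in culture, and 3 were higher and 5 lower in ESC. Leaving out 1 control replicate gave 1 to 2 members higher and 2 to 5 lower in culture footprints, and 0 to 2 higher and 1 to 2 lower in ESC footprints per RNA. Single footprint differences changed sign when 1 library was left out: over these omissions Mrpl10 at 4 h ran from -0.0094 to 0.14 and Mrpl42 at 4 h from -0.017 to 0.11 (both negative without control replicate 1), Mrpl1 at 10 min from -0.11 to 0.00354 (positive without control replicate 3) and Mrpl15 at 30 min from -0.011 to 0.099 (negative without replicate 3 of that time). The cause was not tested. Among the other alternative values of single members 1168 stayed on their side of the threshold or within the control spread, and 88, all in culture or ESC, moved further than that spread with no member past 2-fold changing sign. Mrpl49 lost its call in footprints per RNA without control replicate 1 (-0.21). The SE of the time comparisons and the single libraries of the cells limit what could be seen.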
